A study of Homo sapiens with 3 samples.

Results

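Intestinal and endodermal lineage transcription factors were followed in HCT116 cells, an established colorectal cancer cell line, after knockdown of SMARCA4, the ATPase of the SWI/SNF chromatin remodeling complex. The group was set by gene name and holds 8 genes, CDX1, CDX2, HNF4A, HNF4G, GATA4, GATA6, FOXA1 and FOXA2, of 43317 gene names on the array, and every probe carrying one of these names was read. All 8 genes had a probe, and for 6 of them a probe was well above background on at least 1 array, which is the extraction software's own flag for a detected spot. RNA came from HCT116 cells grown in McCoy's 5A medium and transfected with Lipofectamine 3000, carrying small interfering RNA (siRNA) against SMARCA4 (SMARCA4-KD1 and SMARCA4-KD2) or the scrambled negative control (NC). There was 1 array per condition, so differences between single arrays have no replicate check, and no time after transfection was given in the sources used here.

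Caudal-type homeobox proteins CDX1 and CDX2 specify and maintain the intestinal epithelium. HNF4A and HNF4G are nuclear receptors that drive the absorptive enterocyte program, GATA4 and GATA6 are zinc finger factors that divide the gut tube into regions, and FOXA1 and FOXA2 are forkhead pioneer factors that open chromatin in the endoderm. Many of these factors bind the same intestinal enhancers, and SWI/SNF remodeling at enhancers is one way in which lineage factors gain access to DNA.

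An siRNA sequence is shown because the whole comparison rests on the knockdown. The sample records give it for all 3 samples, with neither the strand nor which siRNA went into which knockdown stated apart from the shared numbers.
SMARCA4 siRNA-1: ucgcuuugguucgcaaauc

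The processed intensity of SMARCA4 was 14030 in NC against 3960 in SMARCA4-KD1 and 4129 in SMARCA4-KD2. Scaled to the 75th percentile of its array, this left 26.6% and 28.8% of the NC level (log2 fold changes of -1.91 and -1.80). Fold changes were scaled in this way unless an alternative is named, while intensities are given unscaled. PRMT1, which the treatment field of the records names in place of SMARCA4, was not lower in either knockdown, with log2 fold changes of 0.27 and 0.37. Both knockdown arrays lay on slide 1 and NC on slide 2, so slide and knockdown cannot be told apart in any comparison with NC.

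CDX2 and FOXA1 promoters are printed because CDX2 was the factor measured at nearly equal levels and FOXA1 the measured factor that lay lower in both knockdowns by the most with a detected signal on all 3 arrays. Each line gives the 250 bases before the RefSeq start of the gene (GRCh38.p14), 5′ to 3′ on the minus strand, at chr13:27969316-27969565 for CDX2 and chr14:37595250-37595499 for FOXA1. Capitals mark matches to the motifs searched.
CDX2: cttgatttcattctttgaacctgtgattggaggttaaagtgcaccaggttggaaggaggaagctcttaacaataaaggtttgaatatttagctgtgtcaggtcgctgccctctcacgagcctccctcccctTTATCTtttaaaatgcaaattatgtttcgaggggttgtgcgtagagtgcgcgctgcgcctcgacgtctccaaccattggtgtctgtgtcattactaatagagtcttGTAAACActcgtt
FOXA1: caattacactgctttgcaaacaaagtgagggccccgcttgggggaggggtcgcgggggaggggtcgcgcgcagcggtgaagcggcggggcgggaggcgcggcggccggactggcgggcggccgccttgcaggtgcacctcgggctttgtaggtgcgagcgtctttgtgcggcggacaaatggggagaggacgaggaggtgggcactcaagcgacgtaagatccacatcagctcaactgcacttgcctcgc

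Motifs were searched on both strands. The forkhead motif was spelled TGTTTAC, which FOXA proteins bind among other forkhead factors. The letters searched for GATA factors were AGATAA, and those for CDX factors were TTTATGG, the consensus of the caudal family. The box bound by the general transcription machinery was searched as TATAAA. Matches of different motifs did not overlap in these windows. The CDX2 window held a forkhead match, which 2.98% of all 35116 promoters held, and a GATA match, which 9.17% held. The FOXA1 window held no match to any of the 4 motifs, and it had 26 CpG dinucleotides and a GC content of 67.2%, against 10 and 45.2% in CDX2. The medians over all promoters were 11 CpG dinucleotides and 58.0%. Of the other factors, HNF4A and GATA6 were matched in the promoter table. The HNF4A window held a GATA match and 8 CpG dinucleotides, and the GATA6 window held no match and 16. A match is a description of letters and was not read as a binding site.

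The caudal factors stayed close to NC. The intensity of CDX2 was 1161 in NC, 1176 in SMARCA4-KD1 and 1178 in SMARCA4-KD2, read by 1 probe at chr13:28536302-28536361 (hg19, as the array files give it). Scaled to each array, its log2 fold changes were -0.07 and -0.01, each with an error of 0.20 estimated by the extraction software from single spots. These differences were smaller than that error, and only 7.44% of all genes had a smaller mean change over both knockdowns.

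CDX1 was read by 3 probes of the same transcript, and 1 of these gave a signal. At chr5:149563184-149563243 the intensity was 202 in NC, 191 in SMARCA4-KD1 and 224 in SMARCA4-KD2. NC thus lay between both knockdowns, with log2 fold changes of -0.16 and 0.12 (software error 0.21). Its other probes were not well above background on any array, with intensities from 3.34 to 6.17, so the CDX1 value rests on 1 spot per array.

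GATA6, which acts in endoderm and in crypt progenitors, was slightly brighter in both knockdowns. Its intensity was 889 in NC, 1050 in SMARCA4-KD1 and 940 in SMARCA4-KD2 at chr18:19781793-19781852. The log2 fold changes were 0.15 and 0.05, again within the software error of 0.20. Its relative GATA4, a factor of the proximal intestine, was not well above background with any of its 4 probes, whose intensities ranged from 3.32 to 7.87 over the 3 arrays. Background-level signal sets only an upper limit, since the lowest intensities well above background were 17.66 in NC, 16.88 in SMARCA4-KD1 and 16.37 in SMARCA4-KD2.

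HNF4A, the main nuclear receptor of enterocytes and hepatocytes, was also not well above background on any array. Its intensity was 3.64 in NC, 3.47 in SMARCA4-KD1 and 3.30 in SMARCA4-KD2. A single probe read it, designed on NM_001030004, and its position at chr20:43036102-43042379 covers 6278 bases of the genome, so the probe crosses an intron. No level or change of HNF4A and GATA4 can be given, and a change below the detection limit was not measurable here.

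HNF4G, the paralog of HNF4A in the intestine, gave results that differed between its 3 probes. The probe designed on ENST00000396419, at chr8:76402375-76402434, was well above background on all 3 arrays, at 50.8 in NC, 42.0 in SMARCA4-KD1 and 40.2 in SMARCA4-KD2. This probe lay lower in either knockdown than in NC by similar amounts, with log2 fold changes of -0.36 and -0.37 (software error 0.26). The probe A_23_P251453, designed on NM_004133 at chr8:76476404-76476463, was well above background in SMARCA4-KD2 alone, at 60.6 against 5.92 in SMARCA4-KD1 and 3.96 in NC. This was at least 3.36-fold higher in SMARCA4-KD2 than in NC and at least 3.73-fold higher than in SMARCA4-KD1. The last probe, at chr8:76477998-76478057 and designed on the same transcript, stayed at or below 3.90 on all arrays. Averaging both detected probes in place of the brightest turned the change in SMARCA4-KD2 to 0.69, so the direction for HNF4G in SMARCA4-KD2 depends on the probe.

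**Figure D1:**
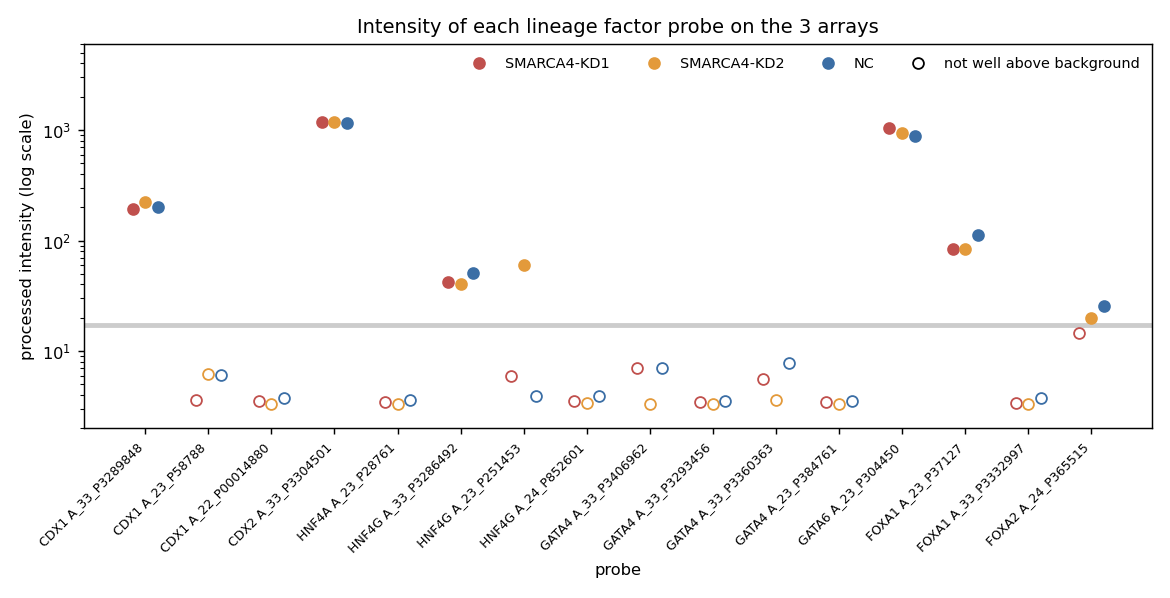
Processed intensity (log scale) of each of the 16 probes of the 8 factors, with 1 point per array and open symbols where the probe was not well above background. The grey band spans the lowest intensities well above background on the 3 arrays, 16.37 to 17.66, and all probes of HNF4A and GATA4 lie below it, while 1 probe of HNF4G lies above it in SMARCA4-KD2 alone.

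FOXA1 and FOXA2 were the members with the lowest signals relative to NC. FOXA3, a FOXA gene outside the group, was higher in both knockdowns, with log2 fold changes of 0.37 and 0.33. Its intensity was 76.0 in NC, 104 in SMARCA4-KD1 and 97.7 in SMARCA4-KD2. FOXA1 was read by 10 repeated spots per array of the probe at chr14:38059546-38059605. Its spot intensities ranged from 74.7 to 98.3 with a median of 84.1 in SMARCA4-KD1, from 75.4 to 91.6 with a median of 85.7 in SMARCA4-KD2, and from 100 to 122 with a median of 113 in NC, where 1 outlier spot was left out. After scaling, all 10 spots of each knockdown lay below the lowest NC spot, and the knockdown arrays overlapped each other.

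Mean levels of FOXA1 relative to the 75th percentile were -1.49 ± 0.12 in SMARCA4-KD1 (SD of log2 over 10 spots), -1.44 ± 0.11 in SMARCA4-KD2 (10 spots) and -0.99 ± 0.09 in NC (9 spots). The log2 fold changes were -0.50 and -0.45, which left 70.7% and 73.2% of the NC level. Spots of 1 array are technical repeats of 1 RNA sample, so this separation describes the spread over spots and not that over cultures. Of the 279 probes with repeated spots that were well above background on all arrays, 23.7% had every spot of both knockdowns below every NC spot and 43.7% had every one above, so separation of this kind was frequent. A second FOXA1 probe, designed on ENST00000557418 at chr14:38064461-38064520, was not well above background on any array.

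**Figure D2:**
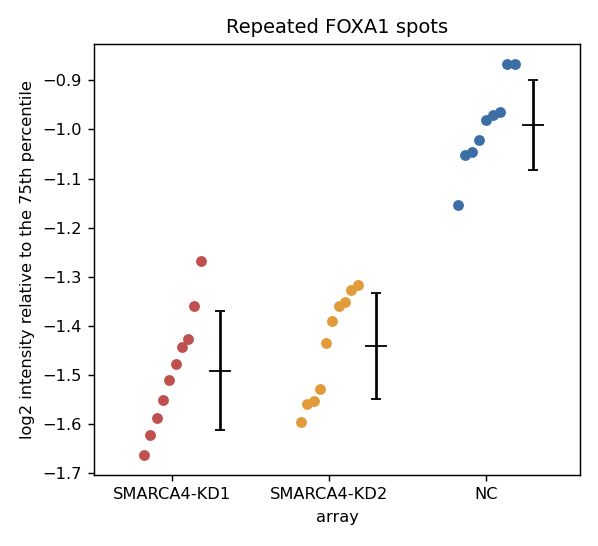
Log2 intensity of the repeated FOXA1 spots after subtracting the array's 75th percentile, with the mean and SD over spots beside the points (10, 10 and 9 spots). The highest knockdown spots lie at -1.27 and -1.32 and the lowest NC spot at -1.15, and the spots are technical repeats of 1 sample per condition.

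FOXA2 was dim on all arrays. Its intensity was 25.6 in NC and 19.9 in SMARCA4-KD2, and 14.5 in SMARCA4-KD1, where it was not well above background (chr20:22562164-22562223). It was therefore at least 1.61-fold lower in SMARCA4-KD1 than in NC, while SMARCA4-KD2 kept 75.9% of the NC level, a log2 fold change of -0.40 with a software error of 0.38. Under normexp background correction, which compresses dim signals, these values were -0.30 and -0.14, and FOXA2 was no longer past 1.5-fold in SMARCA4-KD1.

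At the threshold of 1.5-fold, FOXA2 was the 1 factor of 6 lower in SMARCA4-KD1, where 12.3% of all 22619 genes were lower, and none of the 6 was lower in SMARCA4-KD2, where 9.74% of genes were. None was higher in SMARCA4-KD1 or in SMARCA4-KD2, against 11.2% and 10.1% of all genes. None passed the threshold in both knockdowns, where 8.03% of genes were lower and 6.35% higher. With 6 factors these counts describe few values. The mean change of FOXA1 over both knockdowns was larger than that of 71.3% of all genes and the mean change of HNF4G larger than that of 59.8%, while CDX1, CDX2 and GATA6 ranked at or under 19.7%. FOXA2 is given no rank, since its value in SMARCA4-KD1 is a limit.

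With both knockdowns set against NC in limma, none of the 6 factors passed an adjusted p of 0.05. The call rate over all genes was 0.0% (0 of 22619), with 7143 genes (31.6%) at an unadjusted p under 0.05. FOXA1 had the lowest p of the factors, with a log2 fold change of -0.48 ± 0.16 (SE) and a limma p of 0.0508 (adjusted p = 0.16). FOXA2 (adjusted p = 0.242) and HNF4G (adjusted p = 0.276) followed in limma, and the adjusted p of CDX1, CDX2 and GATA6 ranged from 0.582 to 0.949. Under 9 alternative limma fits the p of FOXA1 ranged from 0.0261 to 0.24, under 0.05 in 7 of them, and its adjusted p from 0.104 to 0.296. In limma without the trend, 28.6% of all genes were also under 0.05, and this share is not given here for the other alternatives. The fit had 1 residual degree of freedom, which came from the difference between the knockdown arrays on slide 1. The lone NC array was taken to vary like the knockdowns, so the SE and p hold no spread between slides.

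**Figure D3:**
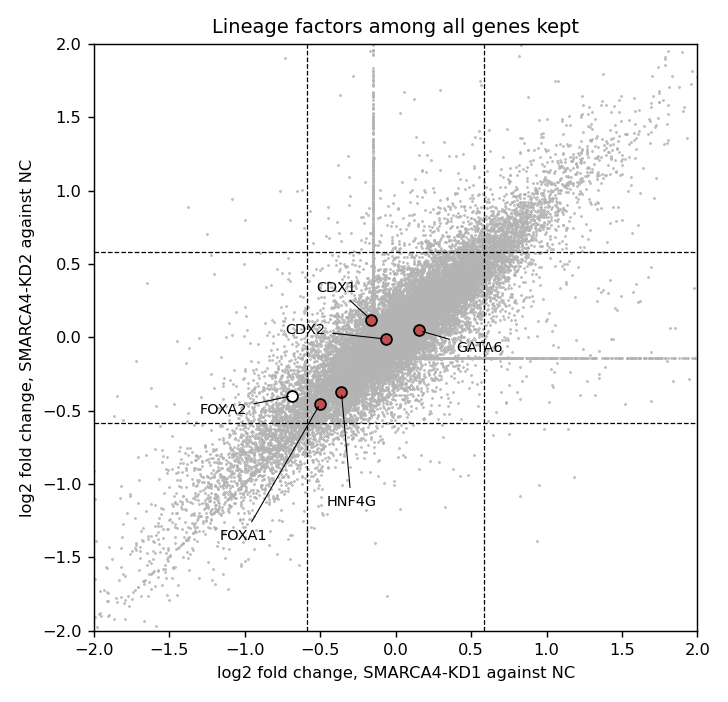
Log2 fold change against NC in SMARCA4-KD1 (x axis) and SMARCA4-KD2 (y axis), with all genes kept in grey, the 6 detected factors as circles (FOXA2 open, since its value in SMARCA4-KD1 is a limit) and dashed lines at 1.5-fold. CDX1, CDX2 and GATA6 lie near the origin and FOXA1 and HNF4G between it and the dashed lines; the straight grey arms are genes set to the detection limit, 249 genes lie outside the axes, and both axes share the NC array.

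The difference between both knockdown arrays gave a scale of the spread within slide 1. It holds no spread between slides, while every change against NC, which lay on slide 2, does. Over all genes the median absolute difference between SMARCA4-KD1 and SMARCA4-KD2 was 0.13 on the log2 scale, and 6.59% of genes were at least 1.5-fold apart. None of the 5 factors detected on all arrays was that far apart in its brightest probe, and FOXA2 was at least 1.22-fold lower in SMARCA4-KD1, a limit that leaves a larger gap possible. FOXA1 differed by -0.05 and HNF4G by 0.01, so both siRNA arrays gave nearly the same level in these brightest probes. The other detected HNF4G probe was at least 3.73-fold higher in SMARCA4-KD2 than in SMARCA4-KD1. CDX1 differed by -0.28, more than its distance from NC in either knockdown.

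A wider list of related lineage factors was read beside the 8 genes. Of its 29 genes, 17 were detected. At least 1.5-fold lower in both knockdowns were 2 of them (11.8% of 17), beside 8.03% of all genes, and 0 were higher, beside 6.35%. At any size of change, 6 were lower in both knockdowns and 8 higher in both. ONECUT1, a cut-homeobox factor of liver and pancreas, had an intensity of 104 in NC, 56.5 in SMARCA4-KD1 and 59.2 in SMARCA4-KD2 (changes of -0.96 and -0.84 in log2, limma adjusted p = 0.085). NR5A2, an orphan nuclear receptor of the gut and pancreas, was at 140 in NC, 85.6 in SMARCA4-KD1 and 92.3 in SMARCA4-KD2 (changes of -0.80 and -0.64 in log2, limma adjusted p = 0.104). Neither passed the limma threshold, and the count of 2 became 1 with the mean over probes and 0 under normexp background correction. The list medians were 0.28 and 0.04, beside -0.004 and 0.02 over all genes. Among those not well above background on any array were PDX1, ISX and ATOH1.

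Target genes and differentiation markers of the intestine were mostly undetected. Of 38 intestinal genes, 14 (36.8%) were detected, against 52.2% of all gene names on the array. Genes not well above background on any array included CDH17, a cadherin of the intestinal epithelium, VIL1, the microvillus protein villin, LGALS4, FABP1, SI, GUCY2C, GPA33 and CEACAM5. Of the 14 detected genes, 9 were well above background on all 3 arrays. Among these, the brightest in NC were CA2 (5546), PLS1 (1958), DPP4 (394), SLC15A1 (260) and USH1C (170). The medians of the 14 detected genes were -0.05 and -0.06. KRT20, a keratin of differentiated enterocytes, was higher in both knockdowns, at 40.2 and 50.8 against 17.5 in NC, where it was not well above background, so that it was at least 2.15-fold and 2.81-fold higher. HEPH, an intestinal ferroxidase, was lower in both, at 12.2 (not well above background) and 22.4 against 32.9 in NC, with a limit of -1.05 and a value of -0.59. KRT20 and HEPH were named after their values were seen, and each was 1 of 14 genes (7.14%) past 1.5-fold in its direction in both knockdowns, beside 6.35% of all genes higher and 8.03% lower.

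Liver and foregut genes, which FOXA and HNF4 factors also bind, were detected for 7 of 24 (29.2%), with medians of 0.21 and 0.31. At any size of change, 4 of the 7 were higher in both knockdowns and 2 were lower in both. At least 1.5-fold lower in both was 1 of 7 (14.3%), beside 8.03% of all genes, and 0 were higher, beside 6.35%. The lower gene was SERPINA1, alpha-1 antitrypsin and a target of HNF factors in the liver. Its intensities were 90.5 and 99.6 against 298 in NC (log2 fold changes of -1.81 and -1.62, limma adjusted p = 0.0675). ALB, AFP, TTR and APOC3 were not well above background on any array.

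Epithelial markers were checked for the labelled cell type. EPCAM, CDH1, KRT8, KRT18 and KRT19 were all well above background on all 3 arrays, and their log2 fold changes lay between -0.23 and 0.30. Of 14 stromal, immune and endothelial markers, 6 were detected, none was past 1.5-fold in both knockdowns, and defining markers such as DCN, LUM, COL1A2, CD3E and PECAM1 were not well above background on any array. The detected stromal, immune and endothelial markers, among them CD14, CDH5, COL1A1, PTPRC and VWF, had intensities from 24.1 to 477. The endothelial markers VWF (24.1 in NC, 27.9 in SMARCA4-KD1, 52.0 in SMARCA4-KD2) and CDH5 (36.9, 46.0 and 61.2 in the same order) were 2.11-fold and 1.62-fold higher than NC in SMARCA4-KD2, and not past 1.5-fold in SMARCA4-KD1. The part of these markers in the results was not tested.

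Genes near the factors were examined by the probe positions in the array files. Within 100 kb of a member's probe lay probes of 45 other gene names, of which 11 were detected and 2 were past 1.5-fold in both knockdowns, 1 lower and 1 higher, where 8.03% of all genes were lower and 6.35% higher. FLT3, a receptor tyrosine kinase of blood progenitors 41.6 kb from CDX2, was at 25.5 in NC and at 9.47 and 9.73 in SMARCA4-KD1 and SMARCA4-KD2, where it was not well above background, so its log2 changes of -0.68 and -0.67 are limits. TTPAL, 76.0 kb from HNF4A, was at 4165 and 4441 against 2543 in NC (0.63 and 0.77). The noncoding neighbor HNF4A-AS1 was detected on all arrays although HNF4A was not, with log2 fold changes of -0.33 and -0.65. Beside FOXA2, lnc-FOXA2-1 was at 59.4 in NC, 81.4 in SMARCA4-KD1 and 77.1 in SMARCA4-KD2. Neither of these RNAs was past 1.5-fold in both knockdowns.

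Alternative processing kept the direction of most factors. Over 9 settings the log2 fold change of FOXA1 ranged from -0.56 to -0.34 in SMARCA4-KD1 and from -0.50 to -0.30 in SMARCA4-KD2, and that of CDX2 from -0.12 to -0.03 and from -0.06 to 0.01. GATA6 stayed between 0.10 and 0.15 in SMARCA4-KD1 and between 0.00 and 0.05 in SMARCA4-KD2. FOXA2, which the filter on all arrays removed, ranged over 8 settings from -0.91 to -0.30 in SMARCA4-KD1.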

How the data were processed

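RNA from cells of both SMARCA4 knockdowns and from NC cells was labeled with Cy3 and hybridized to 1 Agilent SurePrint G3 Human Gene Expression v3 array per condition. The authors deposited the intensity of each spot from Agilent Feature Extraction 10.7.1.1 (per the submitters' processing notes), corrected for background but not normalized between arrays, and a series-level table of the same intensity values. Of 58201 probes per array, 45.7% to 47.3% were well above background and none was saturated. The single array per condition limits the precision.

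Control spots and 83 to 230 outlier spots per array were left out and repeated spots were averaged on the log2 scale. The 75th percentile of each array (intensities of 223.2 to 236.8) was subtracted. Values not well above background were raised to the lowest value that was, which makes a fold change against them a limit. A probe was kept if 1 or more arrays had it well above background, with the brightest probe for each of 22619 gene names. Gene names and hg19 positions are those of the array files; exon or untranslated region was not given in the sources used here. Groups follow the number in the treatment field.

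The fold threshold for single knockdowns was that of the study, 1.5-fold, without a test. Both knockdowns were compared with NC in limma 3.58.1 (R 4.3.3) (trend in intensity, Benjamini-Hochberg adjusted p). The steps were tested on simulated data. Alternatives were quantile normalization, the percentile over detected probes, normexp with an offset of 50, other filters, no floor, the mean over probes, the series-level table, a threshold of 2-fold, limma without trend, an unadjusted p and the methods' t-test. Named genes are the 8 factors, SMARCA4 and PRMT1, list genes detected on all arrays and past 1.5-fold in both knockdowns, and neighbors within 100 kb past it in both. Other names stand for counts or were named with their values known, among them FOXA3, HNF4A-AS1, lnc-FOXA2-1, VWF and CDH5. The factors, lists and rules were chosen with earlier results of these data known. Promoter sequences are from RefSeq (GRCh38.p14), where 4 of the 8 factors were matched. Some items of the lists and records are not reported here.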

Additional observations from a re-analysis of the deposited data

Results flagged for a closer look

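A signal given above was left out of the main gene values, which use the brightest probe. The HNF4G probe A_23_P251453, which was not the brightest probe of its gene, had an intensity of 60.6 in SMARCA4-KD2 against 3.96 in NC and 5.92 in SMARCA4-KD1, and it stood out because it was well above background on that array alone. Before background subtraction the mean over the pixels of this spot was 94.1 and the median 85.5, with an SD of 29.2, and the spot carried no flag for uneven signal. The same spot had pixel means of 40.4 in SMARCA4-KD1 and 41.3 in NC. The other NM_004133 probe of HNF4G was at 3.39 in SMARCA4-KD2, not well above background. What part a transcript of HNF4G had in this signal was not tested.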

How the results depend on the processing

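Each condition had 1 array, so leaving out a replicate was not possible, and slide and knockdown cannot be told apart. No paired analysis was possible because the groups share fewer than 2 replicate numbers. Low intensity limits FOXA2, HNF4G, HNF4A and GATA4 most. No called value changed sign, whereas the uncalled values of CDX2 and HNF4G in SMARCA4-KD2 did under some settings (0.01 and 0.69). Of the counts and medians recomputed under each alternative, 189 stayed within 1.5 times or within the spread between the knockdown arrays and 41 did not. The count of factors lower in SMARCA4-KD1 went from 1 to 0 under normexp, with the filter on all arrays (which leaves FOXA2 out) and at 2-fold, and the count higher in SMARCA4-KD2 went from 0 to 1 with the mean over probes (HNF4G, 0.69). FOXA2 moved to -0.30 in SMARCA4-KD1 under normexp. Over all genes, normexp gave 1361 genes lower and 1521 higher in SMARCA4-KD1, 1013 lower and 1238 higher in SMARCA4-KD2, and 859 lower and 902 higher in both, while a 2-fold threshold gave 823 and 772, 586 and 641, and 477 and 330. Between the knockdowns, 451 genes were past 1.5-fold under normexp, 548 with the filter on all arrays, 2298 without a floor and 2271 in the series-level table, against 1491. Related factors lower in both went from 2 to 0 under normexp and at 2-fold and to 1 with the mean over probes. Intestinal targets lower in both went from 1 to 0 under normexp, the filter on all arrays and 2-fold, and those higher in both from 1 to 0 under normexp and the filter on all arrays. Liver and foregut targets higher in both went from 0 to 1 without a floor. Without a filter the medians became -0.151 for related factors in SMARCA4-KD1 and -0.151 and -0.142 for liver and foregut targets, since most of their genes then sit at the floor. The limma count at an adjusted p of 0.05 was 0, with the smallest adjusted p at 0.0675, and it became 2462 with quantile normalization, 1598 with the percentile over detected probes, 3710 under normexp, 5176 with the filter on all arrays, 30934 without a filter, 3360 without a floor and 3731 in the series-level table; the cause was not tested. Without a filter FOXA2 reached a limma adjusted p of 3.58e-22, and HNF4A and GATA4, which lie at the floor on all arrays, 1.59e-16, in a fit in which many probes share identical floor values; no other factor was called at an adjusted p of 0.05 in the fits listed. At an unadjusted p under 0.05 limma gave 7143 genes (31.6%) and 0 of 6 factors. Without the trend it gave 6464 genes (28.6%) and 2 of 6 factors, FOXA1 (0.0261) and HNF4G (0.0467), and 0 genes after adjustment. The methods' t-test gave 3230 genes (14.3%) and 1 of 6 factors (HNF4G) at an unadjusted p under 0.05. It gave 434 genes and 0 factors at its p of 0.01 and 1.5-fold, and 0 after adjustment.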

Other observations

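Some list genes had a signal on a single array, and these were chosen after their values were seen. APOA4, an apolipoprotein of the enterocyte, was at an intensity of 35.0 in SMARCA4-KD1, and at 3.29 in SMARCA4-KD2 and 5.58 in NC, where it was not well above background. ALPI, intestinal alkaline phosphatase, was at 34.2 in SMARCA4-KD2 and was not well above background in SMARCA4-KD1 (6.74) or NC (11.8). With values below background set to the detection limit, the knockdown arrays were at least 2.06-fold apart for APOA4 and at least 2.10-fold for ALPI, and 2.99% of all genes were at least 2-fold apart between them. Whether these signals came from the cells or from single spots was not tested.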
